A study of Homo sapiens with 9 samples.

Results

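The factors that make the 3′ ends of replication-dependent histone mRNAs were measured as transcripts in SW480 cells, an established human colon adenocarcinoma line whose own APC gene is truncated, and in its stably transfected derivatives. Members were the 10 genes SLBP, NPAT, CASP8AP2, LSM10, LSM11, ZNF473, SYMPK, CPSF2, CPSF3 and ERI1, found by name among 20878 genes of the deposited count table. The list was drawn up with earlier results of these data known, and 1 transcript per gene was chosen by its total count over the 9 libraries, which uses no difference between the lines. Only CASP8AP2 and ZNF473 had more than 1 counted transcript, and the totals of their other transcripts were 96.8% to 99.8% of the highest. All 10 members passed the filter on low counts.

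Messenger RNA was compared between the APC line (SW480 with the pEF vector carrying myc-tagged APC), the CONTROL line (SW480 with the empty pEF vector) and parental SW480, with 3 libraries each. All came from SW480 and hence share its defective APC. Both derived lines were grown with G418 at 1.5 mg/ml and parental SW480 without it, RNA was taken 72 h after plating, and the APC line was plated at a lower cell number than CONTROL and SW480 (2 cells for every 3.35). Libraries of a group came from parallel plates of 1 line, and p-values therefore rest on plate-to-plate spread alone; a property of the line cannot be told apart from the effect of its construct.

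Most messenger RNAs end in a poly(A) tail, whereas the mRNAs of replication-dependent histones, which supply histones for newly copied DNA, normally end in a conserved stem-loop. SLBP binds this stem-loop, and the U7 snRNP, a particle of the small U7 RNA and a ring of Sm-type proteins that contains LSM10 and LSM11, pairs with a purine-rich element just downstream. NPAT and CASP8AP2 (also called FLASH) gather at histone genes in the histone locus body, ZNF473 (ZFP100) connects SLBP with the U7 snRNP, SYMPK and CPSF2 form with the endonuclease CPSF3 the complex that cuts the pre-mRNA, and ERI1 trims the end that results. The cutting complex also acts on ordinary polyadenylated transcripts, whereas SLBP, LSM10 and LSM11 are known mainly for their part in the histone pathway.

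The RNA elements these factors read are shown first because they define the pathway. U7 snRNA (RNU7-1, chromosome 12, GENCODE release 29, GRCh38) is printed 5′ to 3′ as its DNA letters, with capitals for the 9 bases complementary to the HIST2H2BE element (positions 10 to 18) and for the binding site of its Sm-type ring (positions 21 to 31).
U7 snRNA: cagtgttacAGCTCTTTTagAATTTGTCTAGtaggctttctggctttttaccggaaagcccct
The stem-loops of HIST2H2BE, HIST1H2AC and HIST1H2BC, histone genes that were measured in these libraries, are shown with their 16 bases in capitals and 5 bases on either side.
HIST2H2BE stem-loop: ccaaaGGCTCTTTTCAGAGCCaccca
HIST1H2AC stem-loop: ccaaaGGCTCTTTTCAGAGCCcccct
HIST1H2BC stem-loop: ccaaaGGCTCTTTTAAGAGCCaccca
The longest stretch complementary to the 5′ part of U7 snRNA within 60 bases after each stem-loop is given in capitals.
HIST2H2BE downstream element: cactagAAAAGAGCTtgttca
HIST1H2AC downstream element: caaaggAAGAGCTaacctc
HIST1H2BC downstream element: tacccaCTAAAAGAGCTGTggccag
These stretches began 18, 19 and 14 bases after the stem-loop. Because the annotated transcripts of HIST2H2BE and HIST1H2AC run on for 1729 and 1128 bases past the stem-loop, the annotation includes forms of these mRNAs that extend beyond it. A stem-loop of this pattern was found in GENCODE transcripts of 23 of the 34 replication-dependent histone genes tested here. For the others, the lack of a match does not show that the stem-loop is absent. The longest annotated transcripts of HIST1H2BK and HIST1H1C, for example, had only 381 and 642 bases and may end before it.

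Total counts over genes lay between 16456736 and 19358023 per library. APC transcript, from the construct and the cells' own gene together, stood at 145 ± 5.0 CPM (APC), 47.9 ± 1.59 CPM (CONTROL) and 49.3 ± 2.46 CPM (SW480) (CPM are counts scaled to the library size after TMM correction, given as mean ± SD with n = 3). All 6 epithelial markers could be tested, and they differed between the lines. CDH1 stood at 133 CPM (APC), 8.73 CPM (CONTROL) and 7.23 CPM (SW480), EPCAM at 382, 42.4 and 49.4 CPM in the same lines, and VIL1 at 4.62, 0.414 and 0.304 CPM, all 3 called higher in the APC line in both comparisons. The keratin KRT18 was called lower in both, at 2160.0 CPM (APC), 2797 CPM (CONTROL) and 2306 CPM (SW480). KRT19, at 647 CPM (APC), 373 CPM (CONTROL) and 786 CPM (SW480), was called in opposite directions, and KRT8, at 2971, 2883 and 2585 CPM in the same lines, was called higher against SW480 and not against CONTROL. Among other cell types' markers, CD3E, LUM, COL1A2, PECAM1 and CDH5 totalled 5, 2, 19, 11 and 5 counts over all 9 libraries. The 3 leukocyte markers that could be tested, CD14, CD68 and ITGAM, summed to 7.92 to 9.20 CPM in the APC line, 4.83 to 5.90 CPM in CONTROL and 4.52 to 5.21 CPM in SW480. Within that sum ITGAM averaged 1.03 CPM (APC), 0.0352 CPM (CONTROL) and 0.0537 CPM (SW480). Of the 2 testable fibroblast markers, COL1A1 averaged 12.2 CPM (APC), 11.02 CPM (CONTROL) and 13.1 CPM (SW480), and PDGFRB 0.0766, 3.17 and 3.90 CPM in the same lines. Of the endothelial markers only VWF could be tested, at 0.880 to 1.17 CPM (APC), 0.987 to 1.29 CPM (CONTROL) and 0.644 to 0.750 CPM (SW480). The part of these markers in the results was not tested.

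Per unit of transcript length, SLBP was the most abundant of the 10 factors and LSM11 the least in every line. Deposited RPKM values, which scale reads by transcript length and library size, averaged 67.1 ± 1.97 for SLBP in the APC line, 67.4 ± 0.696 in CONTROL and 62.8 ± 2.65 in SW480. LSM11 averaged 1.96 ± 0.257 RPKM in the APC line, 1.64 ± 0.270 in CONTROL and 1.49 ± 0.141 in SW480. The levels fell into an abundant set of SLBP, CPSF3, CPSF2, SYMPK and LSM10, at 24.1 RPKM or more in every library, and a low set of ZNF473, NPAT, ERI1, CASP8AP2 and LSM11, at 9.03 RPKM or less.

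LSM10 and LSM11, neighbours in the U7 ring, were thus far apart at the transcript level, with LSM10 at 26.7 ± 0.980 RPKM in the APC line, 32.9 ± 0.488 in CONTROL and 29.6 ± 1.18 in SW480. The order within the abundant set differed by line. SYMPK held rank 4 in the APC line, rank 3 in CONTROL and rank 5 in SW480, where its mean was 24.5 ± 0.358 RPKM. Neighbouring genes in the order had RPKM ranges that overlapped only in SW480, for LSM10 and CPSF2, for ZNF473 and NPAT, and for CASP8AP2 and ERI1.

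**Figure D1:**
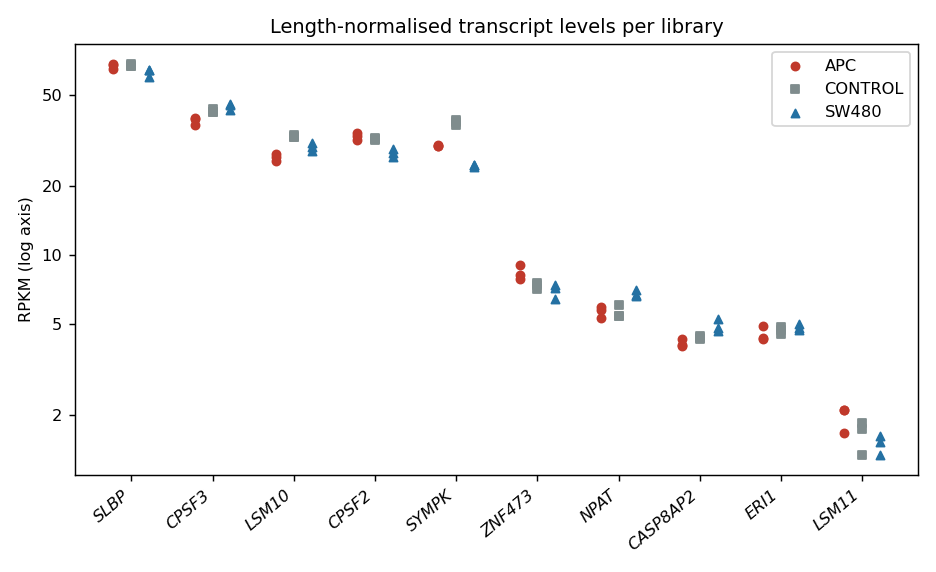
Deposited RPKM (log axis) of the 10 factors in each library, in the order of their SW480 means, with APC (circles), CONTROL (squares) and SW480 (triangles) side by side. SLBP lies at 59.8 RPKM or more in all libraries and LSM11 at 2.11 RPKM or less.

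Transcripts of SLBP, the protein that marks histone mRNA from cutting to translation and decay, were slightly more abundant in both derived lines than in SW480. SLBP was measured at 129, 135 and 133 CPM in the APC libraries, 133, 132 and 131 CPM in CONTROL, and 124, 115 and 125 CPM in SW480. The APC and CONTROL ranges overlapped, and both lay above all SW480 libraries. SLBP was 1.09-fold above SW480 in the APC line (log2 difference 0.13 ± 0.04 SE, edgeR adjusted p = 0.00583), and the same gene was 1.09-fold higher in CONTROL than in SW480 (0.12 ± 0.04, edgeR adjusted p = 0.0113). These comparisons share the SW480 libraries. Between the APC line and CONTROL the log2 fold change was 0.0035 with a 95% interval of −0.08 to 0.08 (edgeR adjusted p = 0.941). SW480 replicate 2 was the lowest library, and without it the log2 fold changes were 0.09 (edgeR adjusted p = 0.0588) for the APC line and 0.08 (edgeR adjusted p = 0.105) for CONTROL, so neither call held. Library totals in place of TMM also ended both calls, at 0.08 (edgeR adjusted p = 0.0584) for the APC line and 0.09 (edgeR adjusted p = 0.0567) for CONTROL. In bulk RNA, a change in the number of cells that express a gene and a change in its RNA per cell cannot be told apart.

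Transcripts of NPAT and CASP8AP2, the components of the histone locus body, were lower in both derived lines than in SW480. NPAT, a coactivator of histone genes that is phosphorylated by cyclin E and CDK2, was measured at 36.5, 38.9 and 40.03 CPM in the APC libraries, 36.4, 36.7 and 40.7 CPM in CONTROL, and 43.9, 46.6 and 44.7 CPM in SW480. All libraries of the derived lines lay below all SW480 libraries. NPAT fell 1.17-fold in the APC line (log2 difference −0.23 ± 0.06, edgeR adjusted p = 5e-04) and 1.19-fold in CONTROL (−0.25 ± 0.06, edgeR adjusted p = 0.000391), each relative to SW480. The APC and CONTROL libraries of NPAT overlapped, with a log2 difference of 0.02 between them (95% interval −0.10 to 0.14, edgeR adjusted p = 0.782).

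CASP8AP2, which binds LSM11 and brings the cutting complex to the U7 snRNP, was measured at 31.2, 31.1 and 32.9 CPM in the APC libraries, 33.1, 34.1 and 33.1 CPM in CONTROL, and 35.1, 39.7 and 36.6 CPM in SW480. The lines stood in the order APC, CONTROL, SW480 with no overlap between libraries of neighbouring lines. CASP8AP2 fell 1.17-fold in the APC line relative to SW480 (log2 difference −0.23 ± 0.06, edgeR adjusted p = 0.00083) and 1.11-fold in CONTROL relative to SW480 (−0.15 ± 0.06, edgeR adjusted p = 0.0266). The call for CONTROL was lost without SW480 replicate 2 (−0.10, edgeR adjusted p = 0.184), without CONTROL replicate 1 (edgeR adjusted p = 0.0783), without CONTROL replicate 3 (edgeR adjusted p = 0.0757) and with DESeq2 (adjusted p = 0.111). Between the APC line and CONTROL the log2 fold change was −0.07 (95% interval −0.19 to 0.05, edgeR adjusted p = 0.269).

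The promoters of this pair are printed because both transcripts were lower in the derived lines. They are RefSeq windows of 250 bases before to 50 bases after the gene start (GRCh38.p14), with capitals for CCAAT boxes (CCAAT or its reverse ATTGG) and for E2F-type sites (TTTGGCGC, TTTCGCGC or TTTCCCGC, either strand).
NPAT promoter, chr11:108222589-108222888, minus strand: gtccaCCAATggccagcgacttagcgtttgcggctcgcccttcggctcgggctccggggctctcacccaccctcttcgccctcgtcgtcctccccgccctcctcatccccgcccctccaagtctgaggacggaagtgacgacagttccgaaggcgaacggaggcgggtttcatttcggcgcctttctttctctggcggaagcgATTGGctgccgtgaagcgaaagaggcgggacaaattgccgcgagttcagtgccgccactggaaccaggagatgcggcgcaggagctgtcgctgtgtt
CASP8AP2 promoter, chr6:89829630-89829929, plus strand: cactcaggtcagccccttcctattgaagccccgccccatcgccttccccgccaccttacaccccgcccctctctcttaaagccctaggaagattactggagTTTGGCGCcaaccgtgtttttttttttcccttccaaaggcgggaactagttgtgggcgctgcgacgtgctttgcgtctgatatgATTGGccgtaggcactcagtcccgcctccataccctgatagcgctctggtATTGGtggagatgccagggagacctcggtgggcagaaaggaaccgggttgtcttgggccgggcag
The NPAT window held CCAAT boxes beginning at −245 and, on the reverse strand, at −47, and none of the E2F-type sites searched. The CASP8AP2 window held reverse CCAAT boxes at −65 and −15 and TTTGGCGC at −149. None of the marked sites overlapped another. A RefSeq window was matched for 8 of the 10 members, of which 4 held a CCAAT box, 2 (CASP8AP2 and CPSF3) an E2F-type site, 5 a GC box (GGGCGG or its reverse CCGCCC) and 0 the letters TATAAA or their reverse. Among 35116 promoter windows of this length the shares were 34.6%, 2.74%, 45.0% and 11.5% in the same order. These matches describe letters only.

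NPAT lies head to head with ATM, a DNA damage kinase gene, and the pair was read side by side. ATM was measured at 87.7, 85.4 and 88.1 CPM in the APC libraries, 99.0, 92.0 and 105 CPM in CONTROL, and 95.2, 105 and 96.7 CPM in SW480. The APC libraries lay below all others, whereas CONTROL and SW480 overlapped. In the APC line ATM was 1.14-fold below SW480 (log2 difference −0.19 ± 0.05, edgeR adjusted p = 0.000883), the direction in which NPAT fell. It was 1.13-fold lower in the APC line than in CONTROL (log2 difference −0.18 ± 0.05, edgeR adjusted p = 0.00116), where NPAT was not called, and CONTROL differed from SW480 by −0.0038 ± 0.05 (edgeR adjusted p = 0.957), where NPAT fell. Whether the genes differ in these responses was not tested.

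**Figure D2:**
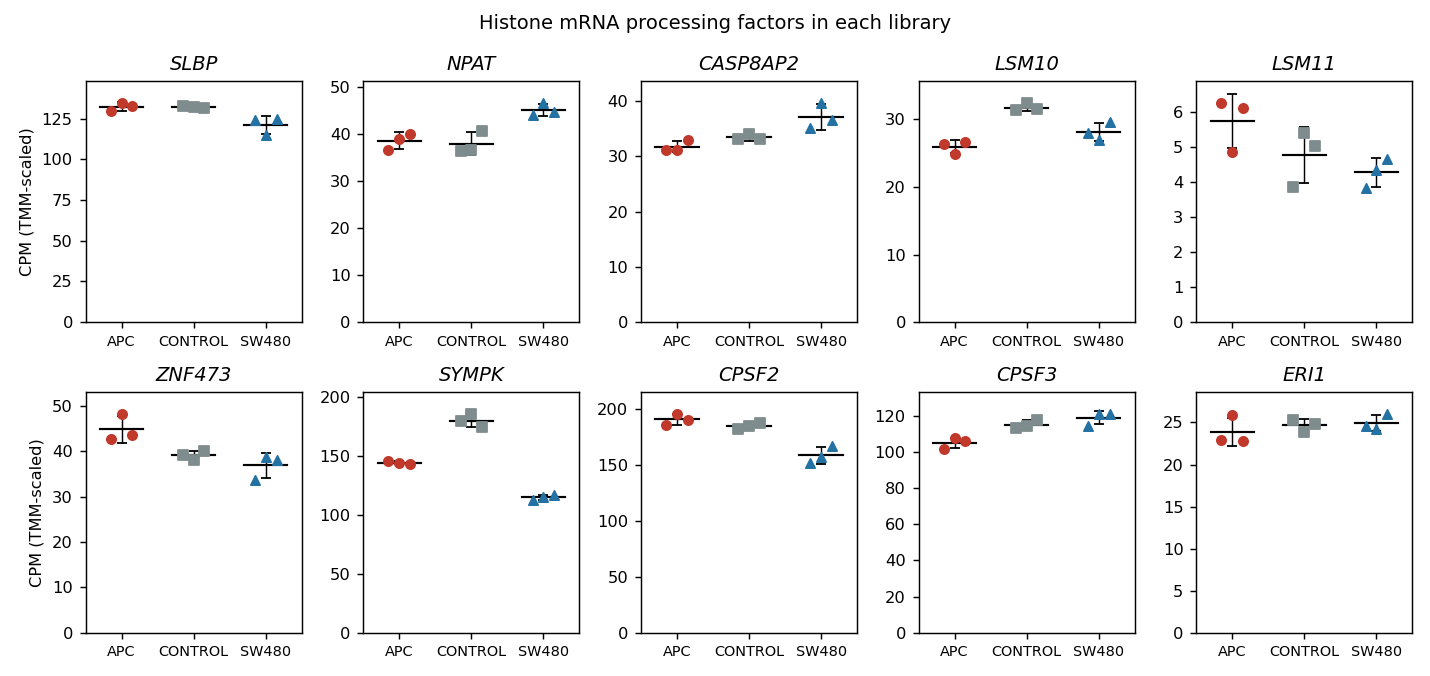
TMM-scaled CPM of each factor in every library of the APC, CONTROL and SW480 lines; points are libraries, horizontal bars the mean and whiskers the SD of 3 libraries. SYMPK shows 3 separate levels, with means of 144 CPM in APC, 180.3 CPM in CONTROL and 115 CPM in SW480, whereas ERI1 overlaps between all lines.

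The protein genes of the U7 snRNP did not share a direction. LSM10, which takes the place of SNRPD1 in the U7 ring, was measured at 26.3, 24.9 and 26.7 CPM in the APC libraries. It stood at 31.4, 32.4 and 31.5 CPM in CONTROL, and 27.9, 27.0 and 29.6 CPM in SW480. The APC libraries were lowest and the CONTROL libraries the highest, with SW480 between them and no overlap. LSM10 was 1.22-fold lower in the APC line than in CONTROL (log2 difference −0.29 ± 0.06, edgeR adjusted p = 8.29e-05). Against SW480 the APC line did not pass the test (−0.12 ± 0.06, 95% interval −0.24 to 0.01, edgeR adjusted p = 0.0848), although it did with library totals in place of TMM (−0.16, edgeR adjusted p = 0.019) and with limma on log2 RPKM at pseudocounts of 1 (adjusted p = 0.00632) and 0.1 (adjusted p = 0.0062). CONTROL was 1.13-fold higher than SW480 (0.17 ± 0.06, edgeR adjusted p = 0.0161), a call lost without CONTROL replicate 2 (edgeR adjusted p = 0.0551), without SW480 replicate 2 (edgeR adjusted p = 0.0792), with library totals in place of TMM (edgeR adjusted p = 0.055) and with DESeq2 (adjusted p = 0.0601).

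LSM11, which takes the place of SNRPD2 and carries the binding surface for CASP8AP2, was the least abundant member, with 114, 84 and 105 counts in the APC libraries, 72, 88 and 97 counts in CONTROL, and 71, 81 and 87 counts in SW480. In CPM these were 6.27, 4.86 and 6.14 in the APC line, 3.87, 5.41 and 5.04 in CONTROL, and 3.82, 4.34 and 4.67 in SW480. All APC libraries lay above all SW480 libraries, and CONTROL overlapped both. Its replicates varied more than those of any other member, with coefficients of variation of 13.5% in APC, 16.9% in CONTROL and 10.0% in SW480. LSM11 was 1.35-fold above SW480 in the APC line (log2 difference 0.43 ± 0.14, edgeR adjusted p = 0.00745). Against CONTROL the APC line was at 0.28 ± 0.14 (95% interval −0.01 to 0.56, edgeR adjusted p = 0.0745), which passed without APC replicate 2 (0.40, edgeR adjusted p = 0.019) or without CONTROL replicate 2 (0.37, edgeR adjusted p = 0.0372). Without CONTROL replicate 1 it was 0.15 (edgeR adjusted p = 0.393) and without APC replicate 1 it was 0.21 (edgeR adjusted p = 0.232). CONTROL and SW480 differed by 0.15 ± 0.15 (edgeR adjusted p = 0.411).

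ZNF473, a zinc finger protein gene, was the 1 member called higher in the APC line in both comparisons. It was measured at 42.7, 48.2 and 43.5 CPM in the APC libraries, 39.0, 38.0 and 40.1 CPM in CONTROL, and 33.7, 38.8 and 38.1 CPM in SW480. The APC libraries lay above all others, and CONTROL and SW480 overlapped. ZNF473 rose 1.22-fold relative to SW480 (log2 difference 0.28 ± 0.06, edgeR adjusted p = 7.59e-05) and 1.15-fold relative to CONTROL (0.20 ± 0.06, edgeR adjusted p = 0.0034). CONTROL differed from SW480 by 0.08 ± 0.06 (edgeR adjusted p = 0.252).

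The U7 ring shares 5 proteins with the spliceosomal Sm ring, in which SNRPD1 and SNRPD2 hold the places of LSM10 and LSM11. Of the 7 Sm genes, 4 were higher and 1 was lower in both APC comparisons, beside 27.8% higher and 28% lower over all genes tested. SNRPD3, a protein of both rings, stood at 138 CPM (APC), 104 CPM (CONTROL) and 99.0 CPM (SW480), with log2 fold changes of 0.48 against SW480 and 0.41 against CONTROL. SNRPD1 was the lower one, at 128 CPM (APC), 209 CPM (CONTROL) and 164 CPM (SW480). LSM10 and SNRPD1 thus stood in the same order over the lines, highest in CONTROL and lowest in the APC line.

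The subunits of the cutting complex also differed from one another. SYMPK, the scaffold that holds the complex together, was measured at 146, 144 and 143 CPM in the APC libraries, 179.6, 186 and 175 CPM in CONTROL, and 113, 115 and 117 CPM in SW480. Each line had its own level without overlap, and the APC line lay between CONTROL and SW480. SYMPK was 1.26-fold above SW480 in the APC line (log2 difference 0.33 ± 0.04, edgeR adjusted p = 3.31e-09) and 1.25-fold lower than in CONTROL (−0.32 ± 0.04, edgeR adjusted p = 3.34e-09). CONTROL was 1.57-fold higher than SW480 (0.65 ± 0.04, edgeR adjusted p = 1e-15), the largest change of any member in any comparison.

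CPSF2, the catalytically inactive partner of the endonuclease, was measured at 186, 196 and 191 CPM in the APC libraries, 182, 185 and 187 CPM in CONTROL, and 152, 157 and 167 CPM in SW480. The derived lines overlapped each other and lay above SW480. CPSF2 was 1.203-fold above SW480 in the APC line (log2 difference 0.27 ± 0.04, edgeR adjusted p = 2.46e-07) and 1.16-fold higher in CONTROL than in SW480 (0.22 ± 0.04, edgeR adjusted p = 1.63e-05). The APC line and CONTROL differed by 0.05 (95% interval −0.03 to 0.13, edgeR adjusted p = 0.287).

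CPSF3, the endonuclease, was measured at 102, 107 and 106 CPM in the APC libraries, 113, 114 and 118 CPM in CONTROL, and 115, 121 and 121 CPM in SW480. The APC libraries lay below all others. CPSF3 fell 1.13-fold relative to SW480 (log2 difference −0.18 ± 0.04, edgeR adjusted p = 0.000218) and 1.095-fold relative to CONTROL (−0.13 ± 0.04, edgeR adjusted p = 0.00523). The second call was lost without CONTROL replicate 3, at −0.10 (edgeR adjusted p = 0.0657). CONTROL differed from SW480 by −0.05 ± 0.04 (edgeR adjusted p = 0.335).

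Genes starting next to CPSF2 and CPSF3 were read in the same way. NDUFB1, a respiratory chain subunit gene that starts next to CPSF2, differed by 0.19 on the log2 scale between the APC line and SW480 (edgeR adjusted p = 0.000647) and differed by 0.06 from CONTROL (edgeR adjusted p = 0.256). In the APC line ITGB1BP1, an integrin-binding protein gene that starts next to CPSF3, was 0.12 above SW480 (edgeR adjusted p = 0.0244) and 0.20 above CONTROL (edgeR adjusted p = 0.000331), the opposite direction to CPSF3. IAH1, downstream of CPSF3, was lower in the APC line, at 34.8 ± 1.01 CPM against 55.6 ± 1.25 CPM in CONTROL and 45.0 ± 1.09 CPM in SW480.

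Of 17 other genes of ordinary cleavage and polyadenylation, 3 were higher and 1 was lower in both APC comparisons, beside 27.8% higher and 28% lower over all genes. CSTF1, a subunit of the cleavage stimulation factor, stood at 79.2 CPM (APC), 59.5 CPM (CONTROL) and 66.2 CPM (SW480). PAPOLA, the main nuclear poly(A) polymerase gene, stood at 447 CPM (APC), 406 CPM (CONTROL) and 368 CPM (SW480). PCF11, a termination factor gene, was lower, at 56.5 CPM (APC), 61.8 CPM (CONTROL) and 64.7 CPM (SW480). The median log2 difference of the 17 genes was 0.0037 against SW480 and −0.03 against CONTROL, beside −0.01 and −0.0060 over all genes tested.

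ERI1, the exonuclease that trims the histone mRNA end and takes part in its decay, was the 1 member called in no comparison. It was measured at 22.9, 25.9 and 22.9 CPM in the APC libraries, 25.3, 23.8 and 24.8 CPM in CONTROL, and 24.6, 24.2 and 26.05 CPM in SW480. All 3 lines overlapped. The log2 fold change was −0.06 against SW480 (95% interval −0.20 to 0.07, edgeR adjusted p = 0.397) and −0.05 against CONTROL (−0.18 to 0.09, edgeR adjusted p = 0.535). Of 20 tested genes for translation and decay of histone mRNA, 3 were higher and 4 were lower in both APC comparisons, beside 27.8% higher and 28% lower over all genes. The higher ones were UPF1, a helicase recruited to histone mRNA for decay, at 158 CPM (APC), 119.9 CPM (CONTROL) and 120.4 CPM (SW480), and LSM4 and LSM7, subunits of the ring that binds RNA tails. The lower ones were CTIF, DCP1A and DDX19B, genes for a translation factor, a decapping factor and an export helicase, and LSM3, another subunit of that ring, at 42.0 CPM (APC), 46.4 CPM (CONTROL) and 74.3 CPM (SW480). LSM5, also of the ring, was called lower against CONTROL (−0.35) and not against SW480, so the ring genes did not share a direction.

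**Figure D3:**
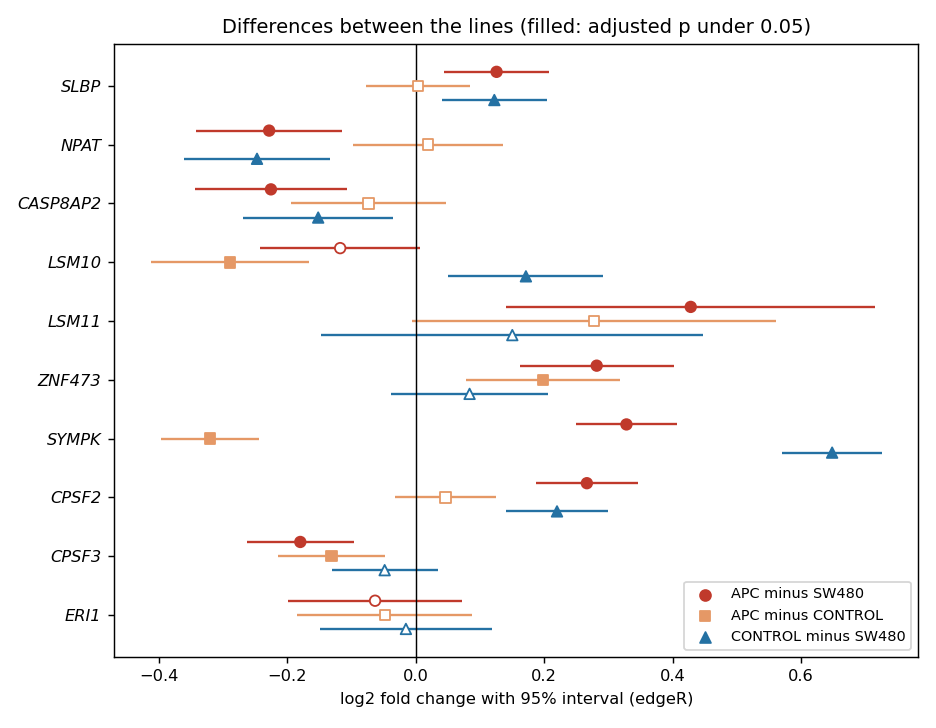
Log2 fold changes of the 10 factors for APC minus SW480, APC minus CONTROL and CONTROL minus SW480, with 95% intervals; filled symbols have an edgeR adjusted p under 0.05. SYMPK has intervals on opposite sides of 0 for APC minus SW480 (0.33) and APC minus CONTROL (−0.32), and ERI1 has 3 open symbols.

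In APC against SW480, 5 members were higher (SLBP, LSM11, ZNF473, SYMPK and CPSF2) and 3 lower (NPAT, CASP8AP2 and CPSF3) (edgeR, Benjamini-Hochberg adjusted p under 0.05), or 80% of the 10, beside 72.5% of all 14255 genes tested (35.6% higher and 36.9% lower). The count was near the background. Libraries of the lines did not overlap for 9 members, beside 73.1% of all genes. Log2 fold changes of the members ran from −0.23 to 0.43 with a median absolute value of 0.23, beside 0.35 over all genes tested, and no member was called with a change over 1.5-fold, beside 32% of all genes. In APC against CONTROL, 1 member was higher (ZNF473) and 3 lower (LSM10, SYMPK and CPSF3), or 40%, beside 70.2% of all genes (34.8% higher and 35.4% lower), and libraries did not overlap for 5 members, beside 73.4% of all genes. The range was −0.32 to 0.28 with a median absolute value of 0.10, beside 0.34 over all genes, and 0 members were called over 1.5-fold, beside 30.6% of all genes.

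In CONTROL against SW480, the comparison of the vector line with its parent, 4 members were higher (SLBP, LSM10, SYMPK and CPSF2) and 2 lower (NPAT and CASP8AP2), or 60%, beside 50% of all genes (25.3% higher and 24.7% lower), and libraries did not overlap for 6 members, beside 56.6% of all genes. SYMPK was the 1 member called with a change over 1.5-fold, beside 11.6% of all genes. ZNF473 (higher) and CPSF3 (lower) were the 2 members called in the same direction in both comparisons of the APC line, beside 55.8% of all genes. These comparisons share the APC libraries. SYMPK was called in both in opposite directions.

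The mRNAs on which these factors act, those of the replication-dependent histones, were read in the same libraries. Summed over the 34 replication-dependent histone genes that could be tested, levels were 83.1, 76.0 and 81.8 CPM in the APC libraries, 602, 608 and 615 CPM in CONTROL, and 742, 670.4 and 717 CPM in SW480. The APC libraries lay far below all others, and CONTROL lay below SW480. HIST1H2BK and HIST1H1C made up most of these sums in each line. HIST1H2BK alone averaged 31.1 CPM (APC), 309 CPM (CONTROL) and 320 CPM (SW480). Of the 34 genes, 27 were lower and 1 higher in the APC line in both APC comparisons, beside 28% and 27.8% of all genes. The median log2 differences of the 34 were −2.33 against SW480 and −2.01 against CONTROL. Of 64 listed histone genes, only these 34 passed the filter on low counts. Some passed only through CONTROL or SW480, which favours a lower call in the APC line for them. HIST1H2AD, for example, averaged 0.173 CPM (APC), 1.95 CPM (CONTROL) and 2.54 CPM (SW480). The count of 27 and the medians include such genes. HIST1H1C, a linker histone gene, stood at 10.8 CPM (APC), 159 CPM (CONTROL) and 233 CPM (SW480), and HIST1H2AC, whose stem-loop is printed above, at 1.25, 15.9 and 21.5 CPM in the same lines. HIST2H2BE averaged 4.39 CPM (APC), 35.4 CPM (CONTROL) and 35.9 CPM (SW480), and HIST1H2BC 0.339, 3.77 and 5.93 CPM in the same lines. HIST3H2A was the higher one, at 14.3 CPM (APC), 5.54 CPM (CONTROL) and 7.81 CPM (SW480). These libraries were made from polyadenylated RNA, a step that retains mainly tailed histone transcripts, and whether stem-loop-ended histone mRNA differed was not measured. Closely similar histone genes can share reads. HIST2H3A and HIST2H3C had identical values, as did HIST2H4A and HIST2H4B, and each was counted separately among the 34, among the 27 and in the sums.

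Replacement histones, which are made outside replication mostly as polyadenylated mRNAs, had 2 of 11 genes higher and 1 lower in both APC comparisons, against shares of 27.8% and 28% over all genes. H3F3B, which encodes histone H3.3, stood at 723 CPM (APC), 614 CPM (CONTROL) and 590.4 CPM (SW480). H2AFV, which encodes an H2A.Z protein, stood at 173 CPM (APC), 241 CPM (CONTROL) and 223 CPM (SW480).

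Of 8 regulators that act on NPAT or on histone gene transcription, 1 was higher and 3 were lower in both APC comparisons, beside 27.8% higher and 28% lower over all genes, so the count was near the background. CCNE2, which encodes cyclin E2, stood at 21.2 CPM (APC), 35.8 CPM (CONTROL) and 36.1 CPM (SW480). CDK2, the kinase partner of cyclin E, stood at 70.8 CPM (APC), 122 CPM (CONTROL) and 100.1 CPM (SW480), and CCNE1 at 11.4, 14.4 and 14.3 CPM in the same lines. POU2F1, an activator of H2B genes, was the higher one, at 38.5 CPM (APC), 28.2 CPM (CONTROL) and 35.1 CPM (SW480). COIL, the scaffold gene of the Cajal body, had log2 fold changes of 0.03 against SW480 and 0.03 against CONTROL and was not called (edgeR adjusted p = 0.701 and 0.726).

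S phase genes, read beside these because histone supply is tied to DNA replication, comprised 24 tested genes, of which 7 were higher in the APC line in both comparisons and 7 lower, near the 27.8% and 28% of all genes. TK1, a thymidine kinase gene, stood at 254 CPM (APC), 138 CPM (CONTROL) and 134 CPM (SW480). RRM2, a ribonucleotide reductase gene, stood at 628 CPM (APC), 796 CPM (CONTROL) and 762 CPM (SW480). Of 8 tested genes for cap binding and pausing of RNA polymerase II, 1 was higher and 2 lower in both comparisons, beside 27.8% and 28% of all genes. The largest change among them was in CCNT1, the cyclin T1 gene, at 51.0 CPM (APC), 83.4 CPM (CONTROL) and 102 CPM (SW480).

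**Figure D4:**
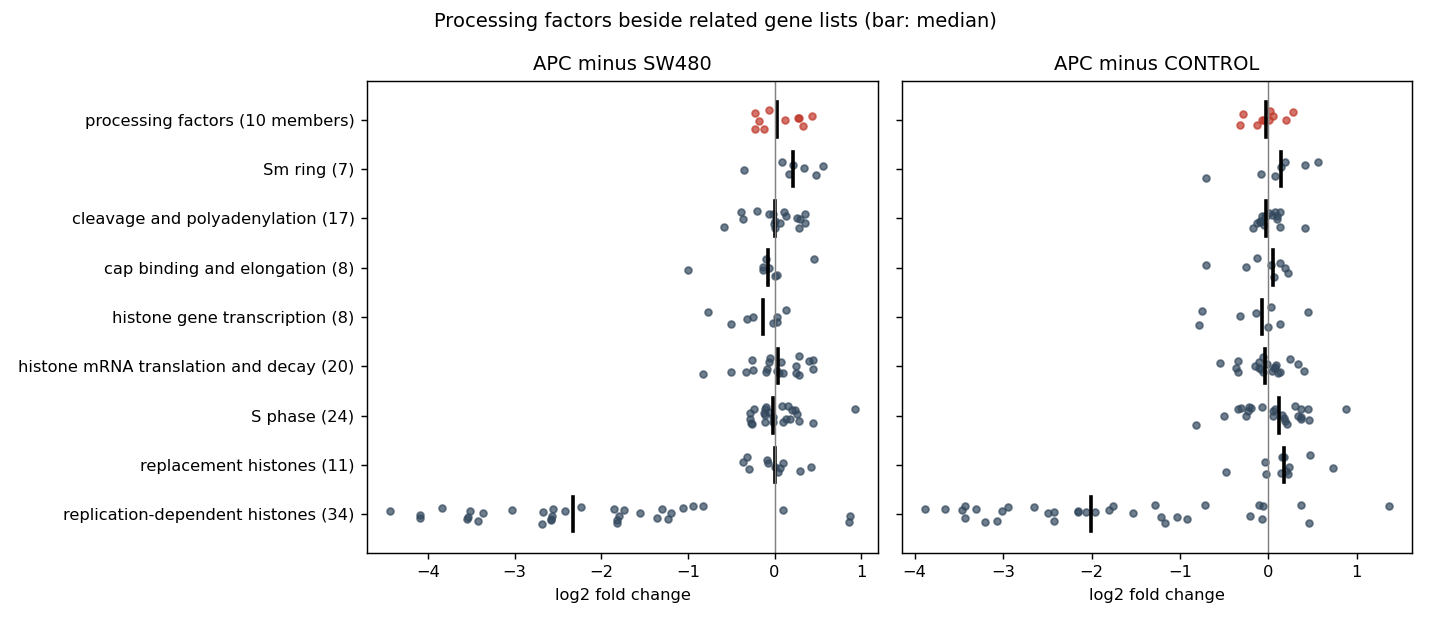
Log2 fold changes of the 10 factors (top row) and of related gene lists for APC minus SW480 (left) and APC minus CONTROL (right); points are genes and bars the median of each row. The factors lie between −0.23 and 0.43 against SW480, while the median of the replication-dependent histone genes is −2.33. Some of these histone genes passed the filter on low counts only through CONTROL or SW480.

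The genes whose profiles over the 9 libraries were most like those of SLBP, NPAT and CASP8AP2 were found by the root mean square difference of centred log2 CPM among 11132 other genes with a mean of at least 5 CPM. STRAP, PRPF4 and CNBP came nearest to SLBP, with differences of 0.020, 0.022 and 0.024. ATXN3, KIF16B and MED17 came nearest to NPAT, at 0.025, 0.033 and 0.038. ATF2, RNF20 and ACP2 came nearest to CASP8AP2, at 0.029, 0.038 and 0.041. MED17, a Mediator subunit gene, stood at 47.3 CPM (APC), 46.1 CPM (CONTROL) and 53.8 CPM (SW480). Its lower level in the derived lines, as for NPAT, follows from its choice by likeness over these libraries. The profiles share the same libraries and their scaling.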

How the data were processed

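Whole-number counts per RefSeq transcript, not normalised, were deposited by the authors, and RPKM values were deposited by the authors beside them; RPKM equalled the count over the deposited length and 1 constant per library for 100% of values above 0, to a relative precision of 1e-04. Trimmomatic, TopHat and GATK are named with build hg19, per the submitters' processing notes, whereas counting tool and strandedness were not given in the sources used here, so reads of overlapping genes on opposite strands may be mixed. A further deposited RPKM table was not used. From the counts, the transcript with the highest total was kept per gene (20878 genes; 62 of 65 date-like names repaired). Genes were tested in edgeR 4.0.16 (R 4.3.3; TMM, filterByExpr, robust quasi-likelihood fit of all 9 libraries, 14255 genes), with Benjamini-Hochberg adjustment over all of them and a threshold of 0.05. The SE is the fold change over the root of F. The biological coefficient of variation was 3.56%, and replicates differed by more than sampling noise (chi-square per degree of freedom 1.34 to 5.38). An exact permutation test of 3 against 3 cannot give a two-sided p under 0.1. Alternatives used DESeq2 1.42.0 and limma 3.58.1.

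The members, lists and tests were chosen with earlier results of these data known. All members are named; from each list up to 3 genes per direction were named, those called the same way in both APC comparisons with the largest smaller change, and some are given by count only. NDUFB1, ITGB1BP1, IAH1 and ATM were taken as neighbours within 1 kb of members (RefSeq, GRCh38.p14), and COIL, HIST2H2BE and HIST1H2BC, the last 2 for their sequences, after their values were seen. LSM3, LSM5, HIST1H2BK and the single marker genes were likewise added then. RDBP and LSM2, with 2 and 0 counts in all, were not tested.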

Additional observations from a re-analysis of the deposited data

How the results depend on the processing

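The counts of all genes called kept within 1.5 times of 10335, 10006 and 7131 under each of the 9 alternatives and the 9 fits without 1 library. The fits without 1 library gave 9916 to 10389 for APC against SW480, 9449 to 10262 for APC against CONTROL and 6185 to 7299 for CONTROL against SW480. Members called ranged without 1 library from 4 to 5 higher and stayed at 3 lower for APC against SW480, from 1 to 2 higher and 2 to 3 lower for APC against CONTROL, and from 2 to 4 higher and 1 to 2 lower for CONTROL against SW480. In the last comparison, library totals without a composition factor gave 2 higher and DESeq2 gave 1 lower. Of 540 member values under these alternatives, 515 kept direction and side of the threshold, 13 lost a call, 5 gained one and 7 changed sign. The sign changes were all of values near 0 that were never called. For SLBP in APC against CONTROL they were −0.0068 (library totals), −0.0077 (RPKM, pseudocount 1) and −0.0078 (RPKM, pseudocount 0.1), and without 1 library the lowest and highest values were −0.0091 and 0.086 for NPAT in APC against CONTROL and −0.038 and 0.0175 for ERI1 in CONTROL against SW480. Library totals ended 3 calls, of SLBP in APC against SW480 (0.08, adjusted p = 0.0584) and in CONTROL against SW480 (0.09, adjusted p = 0.0567) and of LSM10 in CONTROL against SW480 (0.14, adjusted p = 0.055); the cause was not tested. No scaling moved the median of all genes by over 0.1 (log2), the largest shift being −0.04 with library totals.

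Replicate numbers are shared by the lines. Deviations of same-numbered libraries from their line means had correlations of −0.07 to 0.11, and those of differently numbered libraries −0.09 to 0.07. With so few libraries, these values cannot show whether same-numbered libraries shared a batch. A replicate block gave 10297, 9993 and 7109 genes called and changed no call of a member. LSM11, at 71 to 114 counts per library, is the member whose precision depth limits most.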
